A study of Mus musculus with 123 samples.

Results

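Hmga2, Hmga1, Lin28a, Lin28b, Igf2bp1, Igf2bp2, Igf2bp3 and Sall4 are genes of early embryonic tissue that many tumours switch on again, and their messages were followed here through 3 ages of the mouse heart. The 8 genes were taken by symbol from the 23337 rows of the count file, and 7 of them had a count in at least 1 cell. Single cells came from hearts of the aMHC-GFP strain, in which the αMHC (Myh6) promoter drives GFP. Hearts were taken from embryos at days E9.5 and E12.5 of gestation and from newborns on postnatal day 1 (P1), the sorted αMHC+ cells were captured on Fluidigm C1 chips, and full-length cDNA was sequenced. The labels name no treatment and no other allele for any age. Hearts were digested with collagenase at both embryonic ages and with Liberase at P1, so digestion and the step from embryo to newborn cannot be told apart.

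A cell entered the report if at least 2000 genes had a count in it. This held for 42 of 42 E9.5 cells, 29 of 29 from E12.5 and 41 of 52 P1 cells. Prefixes of the cell titles split them into naming sets: C (14 cells) and N530 (28 cells) at E9.5, C (20 cells), N523 (8 cells) and E12-5b (1 cell) at E12.5, and only C at P1. The labels name no animal, litter or chip, so each age was read as 1 sample and no test across cells was made. Median total counts were 2476022 per E9.5 cell, 493238 per E12.5 cell and 149078 per P1 cell, with the deepest cells in sets N530 and N523. At least 6 of 8 cardiomyocyte markers (Tnnt2, Actn2, Myh6, Ttn, Nkx2-5, Actc1, Tnni3 and Myl4) reached 10 counts per 1000000 (CPM) in 38 of the 42 E9.5 cells, in all 29 from E12.5 and in 40 of the 41 P1 cells. Summed endothelial, fibroblast, epicardial, erythroid, macrophage, neural and endoderm markers each had a median below 1 CPM at every age. Single cells held more at each age. The highest sums of the 3 ages were 1843, 13.5 and 7507 CPM for endothelial, 4007, 529 and 112 CPM for fibroblast and 2695, 510 and 372 CPM for epicardial markers, and macrophage markers reached 636 CPM in 1 P1 cell. The only cells with 3 or more markers of 1 of these lists were 1 E9.5 and 1 P1 cell for the endothelial and 1 E9.5 and 1 E12.5 cell for the fibroblast list. Kdr was at 45.9 CPM at E9.5 (12 cells), 0.0396 CPM at E12.5 and 0 at P1, Pdgfra at 156 CPM (13 cells), 9.24 CPM and 0, and Wt1 at 166 CPM (8 cells), 5.96 CPM and 0. Emcn was at 0.139, 0 and 186 CPM, the last from 1 cell, Col1a2 at 23.6, 36.2 and 3.37 CPM, and Tbx18 at 20.7, 27.4 and 21.4 CPM. Upk3b and Aldh1a2 were at 0 at every age. The summed smooth muscle markers Myh11, Acta2, Tagln and Cnn1 had medians of 4373, 2324 and 1110 CPM from the youngest age to the oldest. The part of these markers in the results was not tested.

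HMGA proteins bind the minor groove of AT-rich DNA and bend chromatin. LIN28 proteins bind let-7 precursors and block their maturation, and IGF2BP proteins bind messages such as that of Igf2 and shape their stability and translation. SALL4 is a zinc finger transcription factor of embryonic stem cells and early organ rudiments. Mature let-7 miRNAs pair through their seed with sites in messages of several of these genes, Hmga2 and Lin28b among the best known, and let-7 levels rise in many tissues as they mature.

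The let-7 sequence and its matching letters in the messages are shown because they are what the 8 genes have in common besides their embryonic use. The 9 mouse let-7 family members in RefSeq (GRCm38) have 1 seed, written here in capitals (bases 2 to 8), and 2 of them are printed.
mmu-let-7a-5p: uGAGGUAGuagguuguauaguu
mmu-let-7g-5p: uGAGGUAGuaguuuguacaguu
The letters CTACCTC, complementary to this seed, were searched on the message strand of the longest annotated 3′ UTR of each gene (GENCODE, GRCm38). They stood in 9.03% of 21014 genes and at 2 or more places in 1.08%, and in all 8 of the genes described here. Hmga2, Lin28b and Igf2bp1 held 4 matches each, Lin28a held 2, and Hmga1, Igf2bp2, Igf2bp3 and Sall4 held 1 each. Long UTRs hold more matches. Among UTRs within 20% of the same length, 4 or more stood in 0.134% for Hmga2, 0.236% for Lin28b and 0.355% for Igf2bp1, and 2 or more in 2.10% for Lin28a. For genes with 1 match the share was 8.07% for Hmga1, 12.0% for Igf2bp2, 13.3% for Igf2bp3 and 11.1% for Sall4. The genes were named together as oncofetal genes, several of them textbook let-7 targets, and a match is a description of the letters, not a measured site. The 4 matches of Hmga2, both of Lin28a and the first of each other gene but Hmga1 follow with 10 bases before them, the match in capitals and, where present, the A after it, which adds to let-7 pairing sites.
Hmga2 match 1 (chr10:120364220-120364241, minus strand): cattcaatttCTACCTCAgcat
Hmga2 match 2 (chr10:120362983-120363004, minus strand): ctcctcaataCTACCTCtgaat
Hmga2 match 3 (chr10:120362545-120362566, minus strand): ttgcaaggaaCTACCTCcacac
Hmga2 match 4 (chr10:120361687-120361708, minus strand): aaacacactaCTACCTCttaag
Lin28a match 1 (chr4:134005185-134005206, minus strand): gcctgttgaaCTACCTCAtttt
Lin28a match 2 (chr4:134004547-134004568, minus strand): cgccacaaacCTACCTCActgt
Lin28b match 1 (chr10:45381018-45381039, minus strand): ggcgggaagtCTACCTCAtgca
Igf2bp1 match 1 (chr11:95961774-95961795, minus strand): gcgaagtaaaCTACCTCAaggt
Igf2bp2 match 1 (chr16:22059469-22059490, minus strand): caaataaaagCTACCTCAggtg
Igf2bp3 match 1 (chr6:49086783-49086804, minus strand): ttttactcaaCTACCTCAggta
Sall4 match 1 (chr2:168748936-168748957, minus strand): tttaatttatCTACCTCAatta
Mature let-7 was not measured, since the library captures polyadenylated RNA. The 11 Mirlet7 rows of the count file held 138, 22 and 10 counts in the order of age, from 3, 4 and 3 cells, or 1.37, 0.435 and 1.47 CPM of the pooled cells, and no direction is read from them.

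The 7 counted genes differed in how their levels went with age. Hmga2, Lin28a, Igf2bp1 and Sall4 fell to 0 or near 0 by P1, while Igf2bp2 and Igf2bp3 were still found in P1 cells. A gene was called lower where its pooled CPM, for which the counts of all cells of an age were added up, was 4-fold or more lower and lower in every combination of naming sets of 6 or more cells, among genes at 10 CPM or more at the higher age. From E9.5 to E12.5 the calls were Hmga2, Lin28a and Sall4, 3 of 7 tested, against 15.9% of all genes. From E9.5 to P1 they were Hmga2, Lin28a, Igf2bp1 and Sall4, 4 of 7, against 21.2%, and from E12.5 to P1 Hmga2, Igf2bp1 and Sall4, 3 of 5, against 14.1%. None was called higher in any of these comparisons, where 4.59%, 10.2% and 17.5% of all genes were. Of the markers of other cell types, 1 of 3 endothelial ones tested was called lower and 1 higher from E9.5 to P1. There 2 of 2 fibroblast, 1 of 2 epicardial and 2 of 3 smooth muscle ones were lower and the 1 macrophage marker tested higher. From E9.5 to E12.5 the 1 endothelial marker tested was lower, and none of 2 fibroblast, 2 epicardial, 3 smooth muscle and 1 neural was called. From E12.5 to P1, 2 of 2 endothelial ones and the 1 macrophage marker were higher. In that comparison 1 of 1 fibroblast and 2 of 3 smooth muscle ones were lower, and the 1 epicardial and 1 neural were not called. These stand beside the same shares of all genes. The median log2 ratio of the tested members was −2.21, −6.08 and −3.87 in the same order, beside −0.60, −0.59 and 0.05 over all genes tested. Each of these member medians is the ratio of Sall4. Without the cell with most counts at each age Sall4 was at −6.82, −6.94 and −0.12, so the −3.87 rests on 1 E12.5 cell. Hmga2 and Sall4 were singled out for E9.5 by the study on these same cells, so their calls are not independent evidence. With TMM scaling, which moved every log2 ratio of E12.5 to E9.5 up by 0.43, only Lin28a passed the 4-fold limit there, with Hmga2 at −1.82 and Sall4 at −1.78. Intervals at 95% on levels and ratios given below cover counting error only, and reads that carry no molecular identifier cannot be taken as separate molecules. Those on shares take cells as separate draws, though each age is 1 sample, so they do not cover the spread between animals.

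**Figure D1:**
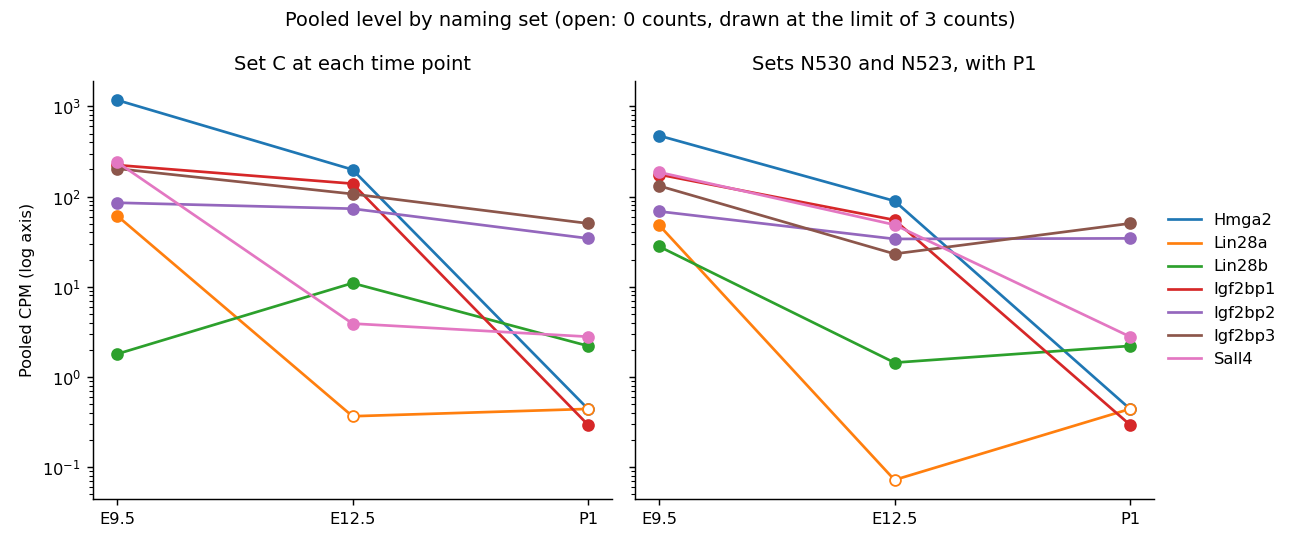
Pooled CPM (log axis) of each gene at E9.5, E12.5 and P1, on the left with set C at every age and on the right with sets N530 and N523 beside P1. Hmga2, Lin28a and Igf2bp1 end at or below 0.44 CPM in both panels, Igf2bp2 and Igf2bp3 end at 34.3 and 50.3 CPM, and Lin28b takes opposite directions from E9.5 to E12.5 in the 2 panels. Open points mark 0 counts and are drawn at the limit of 3 counts.

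Hmga2 (chr10:120361275-120476469, minus strand), the chromatin protein of the group with the highest message level, was found in every E9.5 cell, in some E12.5 cells and in no P1 cell. In the 42 E9.5 cells it ranged from 5.39 to 2389 CPM with a median of 566 CPM. The set C cells lay higher, with a median of 1137 CPM against 396 CPM in set N530. At E12.5 it was found in 14 of 29 cells (48.3%, interval 29.4 to 67.5%), at 45.7 to 899 CPM, and was at 0 in the other 15. The 14 cells had 18 to 2273 counts each. At P1 no Hmga2 count was seen in 41 cells. With 3 as the limit, the share of cells with a count may reach 7.32% (3 cells of 41), where the exact interval ends at 8.60%. The pooled level may reach 0.44 CPM at 3 counts, where the exact interval ends at 0.541 CPM.

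Pooled Hmga2 was 513 CPM at E9.5 (interval 508 to 517) and fell to 108 CPM (104.8 to 110.5) at E12.5, a log2 ratio of −2.25. The combinations of naming sets ran from −3.72 to −1.25, all lower, but not all 4-fold lower. At P1, set at the limit of 3 counts, it was at least 1165-fold lower than at E9.5 and at least 245-fold lower than at E12.5. A single E12.5 cell (cell 23 in accession order, set N523) held 41.8% of the E12.5 counts, and without the cell with most counts at each age the ratio of E12.5 to E9.5 was −2.86 and the bound on that of P1 to E12.5 was −7.28 instead of −7.93. With only cells of 3000 or more genes it was −1.85, under the 4-fold limit. The 4 E9.5 cells below 6 cardiomyocyte markers included the cell with the highest Hmga2, and without them the pooled E9.5 level was 512 CPM. The pseudogene Hmga2-ps1 was counted in 6 E9.5 cells, at 5.86 CPM in all, so few reads were assigned to it.

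Hmga1 (chr17:27556497-27563674, plus strand), the sister gene, was listed at 0 in every cell, as were 8811 of the 23337 rows. Why its row holds no count was not tested, and no level is given for Hmga1.

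**Figure D2:**
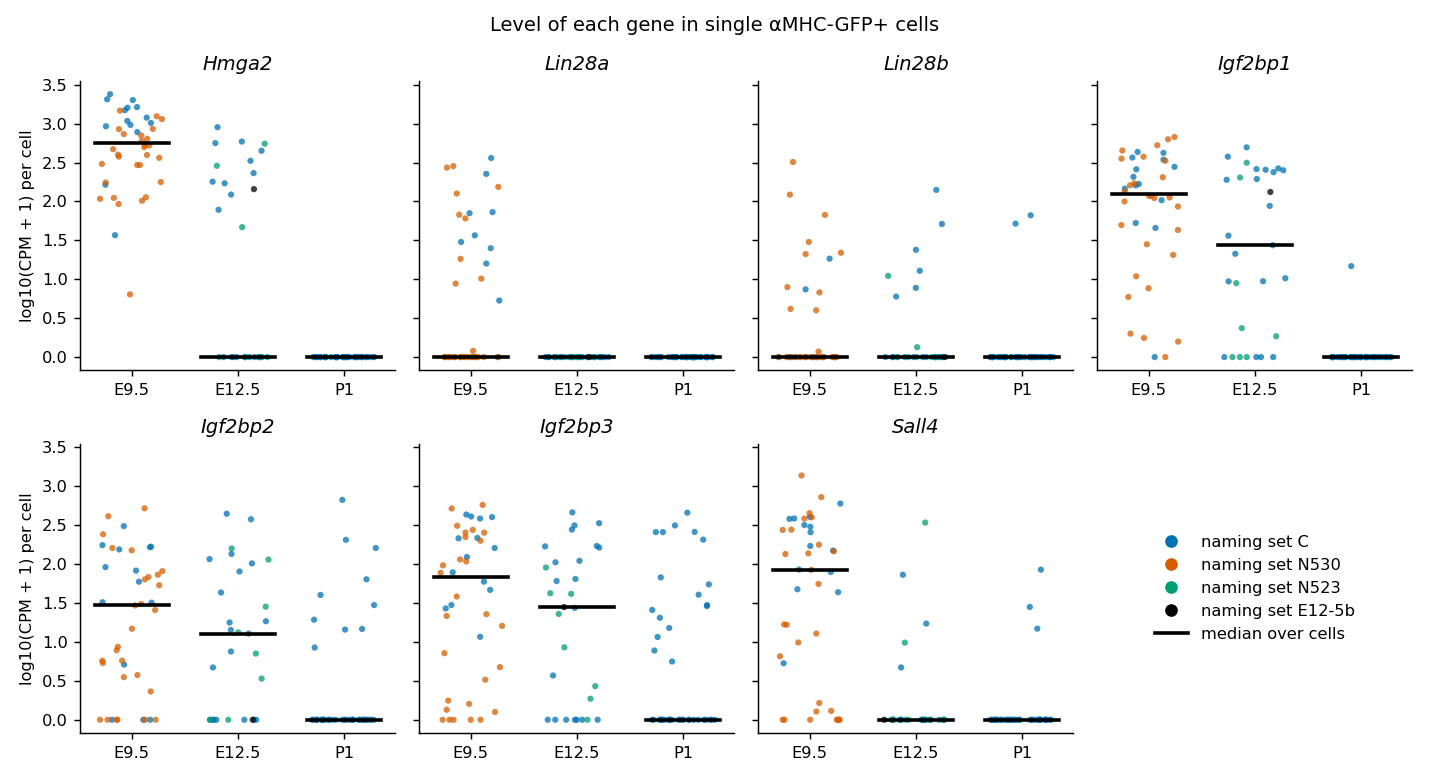
Level of each of the 7 counted genes in single cells, as log10(CPM + 1), at E9.5 (42 cells), E12.5 (29) and P1 (41), coloured by naming set, with a bar at the median over cells. Hmga2 is above 0 in all E9.5 cells and splits into 14 cells at 45.7 CPM or more and 15 at 0 at E12.5, while Lin28a is above 0 only at E9.5.

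Lin28a (chr4:134003330-134018841, minus strand), which recruits the enzymes that tail let-7 precursors for decay, was found only in E9.5 cells among the cells kept. It was found in 19 of 42 E9.5 cells (45.2%, interval 29.8 to 61.3%), 9 of 14 in set C and 10 of 28 in set N530. Its median over E9.5 cells was 0 CPM and its highest cell 360 CPM. Where found, the median was 59.5 CPM. The pooled E9.5 level was 48.98 CPM, close in set C (61.3 CPM) and set N530 (48.3 CPM). No count was seen at E12.5 or P1, so it was at least 825-fold lower at E12.5 and at least 111-fold lower at P1. These bounds follow depth, which is lowest at P1 and at E12.5 lies mostly in set N523. In set C alone the bound on the log2 ratio of E12.5 to E9.5 was −7.39 instead of −9.69, and after thinning it was −5.33. For P1 the bound was −7.12 in set C and −5.72 after thinning, instead of −6.80. Thinned to 100000 counts a cell, Lin28a was still found in 15 E9.5 cells and in no cell of the later ages.

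Lin28b (chr10:45376620-45486395, minus strand), its paralogue, gave no direction. At E9.5 13 of 42 cells held it, at E12.5 8 of 29 and at P1 2 of 41. The pooled levels were 26.5, 2.97 and 2.20 CPM. These rest on few cells: 1 E9.5 cell held 56.3% of the E9.5 counts. In set C alone the level was 1.79 CPM in the E9.5 cells and 11.0 CPM in the E12.5 cells, a log2 ratio of 2.61, while set N523 against set N530 gave −4.28. The 2 P1 cells held 9 and 6 counts. Without the cell with most counts at each age, the ratio to E9.5 at P1 was −3.76 instead of −3.59 and met the rule for a call.

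Igf2bp1 (chr11:95957163-96005940, minus strand), whose protein is the member of its family most tied to embryonic life, was present in 40 of 42 cells from E9.5 (95.2%), in 22 of 29 from E12.5 (75.9%, interval 56.5 to 89.7%) and in 1 of 41 from P1 (2.44%, interval 0.0617 to 12.9%). Over E9.5 cells it ranged from 0 to 673 CPM with a median of 125.3 CPM. Over E12.5 cells it ranged from 0 to 495 CPM with a median of 26.4 CPM. The values of the 2 embryonic ages overlapped. Pooled levels were 178 CPM in the E9.5 cells and 69.4 CPM in the E12.5 cells, a log2 ratio of −1.36 that did not reach 4-fold but was below 0 in every combination of naming sets (−2.02 to −0.34). The single P1 cell held 2 counts, or 0.293 CPM of the pooled cells. That is 607-fold below E9.5, with a counting interval of −12.29 to −7.39 on the log2 scale, and 236-fold below E12.5, with an interval of −10.93 to −6.03. A single E12.5 cell held 36.9% of the E12.5 counts. Without the cell with most counts at each age no P1 count was left, and with P1 at the limit of 3 counts the log2 ratio was −8.40 or lower to E9.5 and −6.73 or lower to E12.5.

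Igf2bp2 (chr16:22059009-22163299, minus strand), the family member that adult tissues also use, was called in no comparison. It was found in 33 of 42, 19 of 29 and 10 of 41 cells (78.6%, 65.5% and 24.4%) in the order of age. The pooled levels were 69.3, 39.9 and 34.3 CPM. The share of cells was lower at P1 while the pooled level was much the same as at E12.5, because 1 P1 cell, at 669 CPM, held 70.9% of the P1 counts. Without the cell with most counts at each age, P1 stood to E9.5 at a log2 ratio of −2.34 instead of −1.02, past the 4-fold limit, and the ratio to E12.5 was −1.43 instead of −0.22.

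Igf2bp3 (chr6:49085223-49214957, minus strand) was the member found in most P1 cells. Counts were seen in 37 of 42 cells at E9.5 (88.1%), then in 21 of 29 (72.4%) and, in newborns, in 17 of 41 (41.5%, interval 26.3 to 57.9%). Thinned to equal depth the counts were 29 of 42, 18 of 29 and 15 of 38. The 17 P1 cells held 1 to 70 counts each, at 4.61 to 457 CPM with a median of 39.5 CPM. The highest P1 cells thus lay in the range of the E9.5 and E12.5 cells, whose highest values were 576 and 461 CPM. Pooled levels were 135, 36.7 and 50.3 CPM. From E9.5 to P1 the log2 ratio was −1.43, which was not called, and it ran from −2.02 to −1.16 under the alternatives. In set C alone, at −2.02, Igf2bp3 was called lower. From E12.5 to P1 the log2 ratio was 0.45, but −1.09 against set C and 1.12 against set N523, so no direction is given for that step. The annotation places 18.7% of the Igf2bp3 exon bases under Malsu1 (2410003K15Rik in the file) on the opposite strand, and reads of both genes cannot be told apart there without strand. Malsu1 was at 14.8 CPM at P1 and was found in 3 of the 17 P1 cells with Igf2bp3 and in 11 of the 24 without it. Among embryonic cells it was found in 10 of the 37 E9.5 cells with Igf2bp3 and in 0 of those without, and in 8 of the 21 E12.5 cells with Igf2bp3 and in 1 without, at 2.70 and 2.67 CPM.

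Sall4 (chr2:168748332-168767943, minus strand) was a gene of most E9.5 cells, 35 of 42 (83.3%, interval 68.6 to 93.0%), and of few later ones. Counts were seen in 5 of 29 E12.5 cells (17.2%, interval 5.85 to 35.8%) and 3 of 41 P1 cells (7.32%, interval 1.54 to 19.9%). The E9.5 cells ranged from 0 to 1376 CPM with a median of 83.9 CPM, and all 14 set C cells had a count. The pooled levels of the 3 ages were 189, 40.8 and 2.79 CPM. At E12.5, 2004 of the 2062 counts came from 1 cell (cell 27, set N523, 341 CPM). The other 4 cells held 2, 8, 22 and 26 counts. The fall from E9.5 did not rest on that cell, and the call from E12.5 to P1 did. Set N523 against set N530 gave a log2 ratio of −1.94, under the 4-fold limit. Without the cell with most counts at each age, E12.5 stood to E9.5 at a log2 ratio of −6.82 instead of −2.21, P1 to E9.5 at −6.94 instead of −6.08, and P1 to E12.5 at −0.12 instead of −3.87. The annotation places 9.501% of the Sall4 exon bases under Gm14261 and 5.86% of those of Lin28a under Gm13061, both on the opposite strand and neither analysed here.

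**Figure D3:**
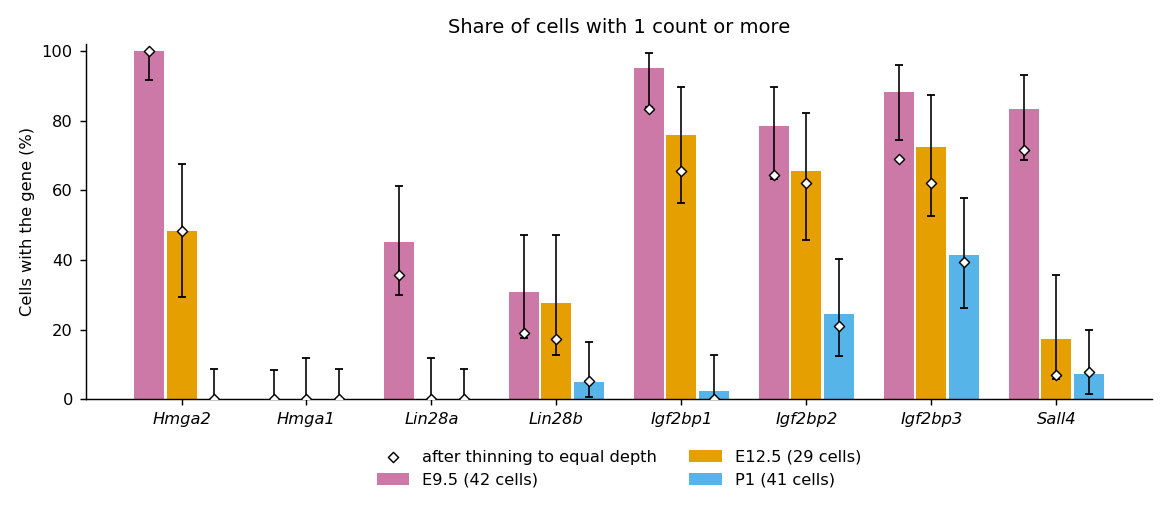
Percent of kept cells with 1 count or more of each gene at E9.5 (42 cells), E12.5 (29) and P1 (41), with exact binomial 95% intervals as bars and diamonds for the share after thinning every cell to 100000 counts. Hmga2 goes from 100% to 48.3% to 0%, whereas Igf2bp3 goes from 88.1% to 72.4% to 41.5%, and the diamonds keep the order of the ages for Hmga2, Lin28b and the 3 Igf2bp genes. For Sall4 the E12.5 and P1 diamonds lie within 1 percentage point.

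Levels of different genes were compared only on the deposited TPM, which are scaled by gene length. At E9.5 the mean TPM over cells was 387 for Hmga2, 79.8 for Sall4, 64.5 for Igf2bp3, 47.98 for Igf2bp1, 43.3 for Igf2bp2, 25.6 for Lin28a and 5.65 for Lin28b. This order was the same in set C and set N530. Between the sets Hmga2 ranged from 270 to 622 TPM, Lin28a from 20.9 to 34.97 TPM and Lin28b from 0.653 to 8.14 TPM, each apart from its neighbours in the order. Neighbouring ranges overlapped among Sall4, Igf2bp3, Igf2bp1 and Igf2bp2. At E12.5 Hmga2 was still first by the mean at 69.8 TPM, ahead of Igf2bp3 (37.3 TPM), Igf2bp1 (26.6 TPM) and Igf2bp2 (26.3 TPM), though below it the sets gave different orders. By the median over E12.5 cells Hmga2 was at 0 TPM, below Igf2bp3 (13.4 TPM), Igf2bp1 (6.54 TPM) and Igf2bp2 (5.50 TPM). At P1 Igf2bp3 (19.0 TPM) and Igf2bp2 (12.1 TPM) led, and the other genes were below 1 TPM.

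Several of these genes were common at E12.5, and many cells held more than 1 of them. The single shares of E12.5 cells were 75.9% for Igf2bp1, 72.4% for Igf2bp3 and 65.5% for Igf2bp2. They were 48.3% for Hmga2, 27.6% for Lin28b and 17.2% for Sall4. Whether the genes met in a cell more often than these shares alone would give was not tested. Of the 29 E12.5 cells, 20 (68.97%, interval 49.2 to 84.7%) held 3 or more of the 8 genes, 14 of 20 in set C and 5 of 8 in set N523. The median E12.5 cell held 3 genes, the median E9.5 cell 5 and the median P1 cell 1. All 42 E9.5 cells and 1 of 41 P1 cells held 3 or more. After thinning, 39 of 42, 16 of 29 and 1 of 38 cells did. One E12.5 cell (cell 24, set N523) held none.

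**Figure D4:**
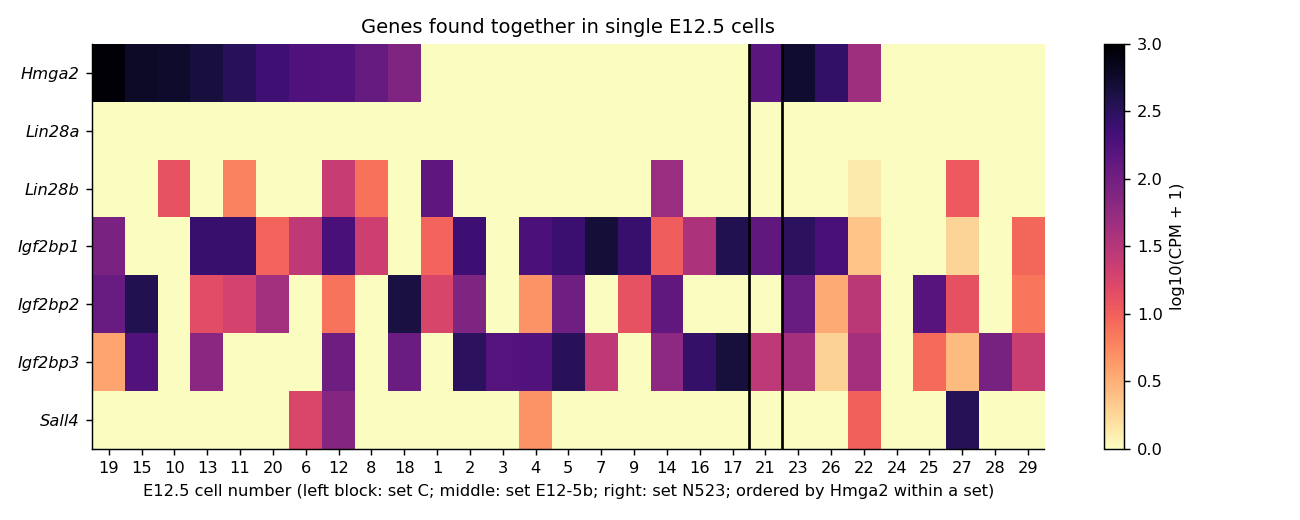
Each column is 1 of the 29 E12.5 cells, with set C at the left, set E12-5b in the middle and set N523 at the right, ordered by Hmga2 within a set, and colour gives log10(CPM + 1) of the 7 counted genes. Hmga2 is above 0 in 14 cells, and Igf2bp1, Igf2bp2 and Igf2bp3 appear on both sides of that split.

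The most common combination was Hmga2 with Igf2bp1, Igf2bp2 and Igf2bp3, in 4 cells, and 2 cells held these 4 with Lin28b and Sall4. Of the 14 cells with Hmga2, 11 held Igf2bp1, 10 Igf2bp2 and 9 Igf2bp3, against 11, 9 and 12 of the 15 cells without Hmga2. These shares are descriptions of the 29 cells. The levels differed between the naming sets. In set C the median Igf2bp1 was 23.3 CPM in the 10 cells with Hmga2 and 213 CPM in the 10 without. The median Igf2bp3 there was 1.35 and 166 CPM. In set N523 the median Igf2bp1 was 202 CPM in only 3 cells with Hmga2 and 0 CPM in 5 without. Those 3 and 5 cells also differed in genes found, with medians of 6113 and 3401. All 5 Sall4 cells also held Igf2bp1, as did 17 of the 24 without Sall4. Summed cycling genes overlapped over most of their range between the cells with Hmga2 (33.6 to 9828 CPM, median 1190 CPM) and those without (0 to 8292 CPM, median 198 CPM). The medians were 785 and 121 CPM in set C and 3025 and 1552 CPM in set N523.

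The genes whose levels followed each member most closely over the 71 E9.5 and E12.5 cells were found by Pearson's r of ln(counts per 10000 + 1) among 7854 genes. For Hmga2 they were Birc6 (r = 0.504), Myh9 (0.499), Zfhx3 (0.474), Smarcc1 (0.453) and Vcan (0.442), with Sall4 sixth (0.441). Within the 4 larger naming sets r stayed above 0 for the first 4 of these, with lowest values of 0.248, 0.100, 0.366 and 0.323, whereas Vcan reached −0.087 in E12.5 set C and Sall4 −0.249 in set N523. Igf2bp1 was closest to Mtf2, Rabif and Thoc2 (0.442 to 0.425), and Igf2bp3 to Rpl11, Sos2 and Wdr18 (0.461 to 0.434). Lin28a was closest to Lztr1, Mapk7 and Crtc3, Lin28b to Rnf26, Mtf1 and Zbtb38, Igf2bp2 to Atr, Akirin1 and Bahcc1, and Sall4 to Rprd1a, Aff3 and Stk24, with r of 0.706 or less. Within naming sets r stayed above 0, where it had a value, for Mtf2, Rabif, Thoc2, Sos2, Lztr1, Mapk7 and Atr. The lowest values were −0.138 for Rpl11, −0.389 for Wdr18, −0.197 for Crtc3 and −0.149 for Rnf26. They were −0.184 for Mtf1, −0.190 for Zbtb38, −0.061 for Akirin1 and −0.310 for Bahcc1. For Rprd1a, Aff3 and Stk24 they were −0.232, −0.087 and −0.152. These r describe sparse counts of cells that share libraries and differ in age. Between members r was highest for Hmga2 with Sall4 (0.441), Lin28a with Lin28b (0.377), Hmga2 with Lin28a (0.342) and Lin28a with Sall4 (0.312), and lowest for Lin28a with Igf2bp2 (−0.0751). Within E9.5 sets C and N530, Lin28a with Lin28b was at 0.035 and 0.625. In the same sets Hmga2 with Lin28a was at 0.234 and 0.131, and Lin28a with Sall4 at −0.018 and 0.215.

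Of the genes of let-7 maturation and decay, 12 were measured. From E9.5 to E12.5, 1 of 11 tested was called lower and 1 higher, from E9.5 to P1 5 of 12 were lower and none higher, and from E12.5 to P1 4 of 11 were lower and 1 higher, beside 15.9%, 21.2% and 14.1% of all genes called lower and the 4.59%, 10.2% and 17.5% called higher. The median log2 ratios were −1.36, −1.65 and −1.31. Trim71, an RNA-binding ubiquitin ligase that is itself a classic let-7 target, went from 189 to 71.5 CPM in the embryo and to 0 counts at P1, at which it was called lower against both embryonic ages. Zcchc11, the enzyme that uridylates let-7 precursors with LIN28, was at 166, 141 and 56.9 CPM and was called in no comparison. Dis3l2, the nuclease that degrades the tailed precursors, reached 223 CPM at E12.5 from only 3 cells.

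Of 19 measured let-7 targets outside the group, 15, 16 and 14 were tested in the same comparisons. Of these, 3, 7 and 6 were called lower and 2, 2 and 1 higher, to be read against the same shares of all genes. Their median log2 ratios were −0.62, −1.80 and −0.64. Ccnd2, a G1 cyclin, was at 1380, 900 and 209 CPM, and Rrm2, a subunit of ribonucleotide reductase, at 405, 825 and 15.1 CPM. Both were called lower at P1 against each embryonic age. Nras was at 1083, 1964 and 410 CPM and was called lower from E12.5 to P1. All 12 cycling genes were called lower from E9.5 to P1 and 11 of 11 tested from E12.5 to P1, but 0 of 12 between the embryonic ages. The part of cell cycling in the members' levels was not tested.

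In the IGF axis, which IGF2BP proteins bear on through the Igf2 message, 12 genes were measured and 9, 10 and 9 tested. The calls were 0, 2 and 0 lower and 1, 1 and 0 higher, and from E9.5 to P1 these are close to the shares of all genes called (21.2% lower and 10.2% higher). Igf2, the fetal growth factor, was at 915, 622 and 322 CPM and was found in all embryonic cells and 33 of 41 P1 cells. The imprinted RNA H19 was at 811, 912 and 362 CPM, and the receptor Igf2r at 2979, 1863 and 943 CPM. None of these 3 was called in any comparison. Igf1 was called higher at E12.5 and at P1 than at E9.5, at 0.604, 250 and 92.1 CPM, and Igfbp5 and Irs2 were called lower from E9.5 to P1. No other gene of the list was called.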

How the data were processed

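Single αMHC+ cells were profiled on the Fluidigm C1 with the SMART-Seq V4 kit. OLego was used by the authors for mapping and featureCounts for counting, and the deposited table holds raw read counts per gene. They also deposited TPM computed from these counts, on a linear scale. The submitters' notes name GRCm38 (mm10). No column lacked a sample.

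Counts of an age were pooled and divided by their total (CPM). Pooled CPM carry exact Poisson intervals and shares exact Clopper-Pearson intervals at 95%. Where no count was seen, 3 counts were taken as the upper limit. With 1 sample per age no test was made. TMM factors came from edgeR 4.0.16 in R 4.3.3, and other steps used Python 3.11.15 with scipy 1.17.1. The kept cells held 69522 to 7711355 counts each. Scripts were tested on simulated data.

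The members and lists were chosen with earlier results of these data known. All 8 members are named, with the 3 highest genes of each list and up to 4 called in the same direction in every comparison, except 1 gene that is not reported here. The 3 genes most like each member (5 for Hmga2) had to reach 10 CPM and be found in 10 cells. Igf1, Igfbp5, Irs2, Peg10, Afp, Dlk1, Tpbg, Pou5f1, Sox2, Malsu1 and the single markers of other cell types were chosen after their values were seen. Alternatives were other minimums, folds and scalings, deposited TPM, single naming sets, thinning, cells with cardiomyocyte markers, cells without titles ending in "no", and leaving out the cell with most counts.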

Additional observations from a re-analysis of the deposited data

Results flagged for a closer look

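Some ratios took opposite directions in set C and in the deeper naming sets. This difference was not tested, because each set is 1 group of cells of 1 age. Lin28b had a log2 ratio of E12.5 to E9.5 of 2.61 in set C and −4.28 with N523 against N530, and of P1 to E9.5 of 0.30 with set C and −3.67 with N530. Igf2bp2 had a log2 ratio of P1 to E12.5 of −1.09 against set C and 0.021 against N523, and Igf2bp3 had −1.09 and 1.12 in the same comparison.

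Sall4 was also seen in the 11 P1 cells with fewer than 2000 genes, which entered no comparison. There 7 counts in 1 cell gave 9.79 CPM, above the limit of 4.196 CPM that a count of 0 allows and above the 2.79 CPM of the kept P1 cells. Of the other genes, only Igf2bp3 had counts in these cells, 2 in 1 cell.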

How the results depend on the processing

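From E9.5 to E12.5, 3 members were called lower, and this count moved to 1 with TMM factors, to 5 with a 2-fold limit and to 1 with an 8-fold limit. With cells of 3000 or more genes 2 were called there, Lin28a and Igf2bp3, and with the deeper sets only 4, Hmga2, Lin28a, Lin28b and Igf2bp3, so that Sall4 was called in neither and Hmga2 not in the first. Under every other alternative run, the counts of members called lower, though not always the same genes, stayed within 1.5 times the main counts of 3, 4 and 3. So did the 20 E12.5 cells with 3 or more members, which were 14 to 20 in the 7 alternatives over all sets. Leaving out Hmga1, which had no count, and asking for 6 cardiomyocyte markers, which all 29 E12.5 cells had, could not change that number. A minimum of 1000 genes could not change E12.5 against E9.5, since all embryonic cells had been kept. Of 212 other log2 ratios, 37 moved by more than the spread between naming sets and none that was called reversed; of 104 other shares of cells, 16 left their interval. Sall4 from E12.5 to P1 was not called in set C alone (log2 ratio −0.48) or without the cells with most counts (−0.12). With thinning (−2.24) it passed the fold but was not lower in every combination of sets, and with deposited TPM (−2.46) and with a minimum of 50 CPM its level was under the minimum. No paired analysis was possible because the cells are numbered in accession order only and each age is 1 sample. Depth limits P1 most, where a gene with no count may lie as high as 0.44 CPM at the limit of 3 counts.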

Other observations

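Of 12 measured family relatives, 1 of 10 tested was called lower from E9.5 to E12.5, 2 of 10 from E9.5 to P1 and 2 of 9 from E12.5 to P1, beside 15.9%, 21.2% and 14.1% of all genes. None was called higher. Hmgb1, an abundant chromatin protein, was at 726, 1236 and 383 CPM from the youngest age to the oldest, and Hmgn2, a nucleosome-binding protein, at 155, 601 and 201 CPM.

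Of 7 other oncofetal genes, 4 were tested from E9.5 to P1 and all 4 were called lower, beside 21.2% of all genes. From E9.5 to E12.5, 1 of 4 was called lower (Peg10), and from E12.5 to P1 1 of 3 (Gpc3), beside 15.9% and 14.1% of all genes. Afp, Dlk1 and Tpbg were below 10 CPM at each age and were not tested. Gpc3, a cell surface proteoglycan that restrains growth, was at 674, 857 and 53.4 CPM and was found in 42, 28 and 26 cells. The imprinted genes Mest and Peg3 were at 1411, 2545 and 304 CPM and at 350, 125.1 and 36.5 CPM, and Peg10 at 31.6 and 0.198 CPM in the embryo with 0 counts at P1.

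Of 11 pluripotency factors, which act beside SALL4 and LIN28 in embryonic stem cells, 1 reached 10 CPM. This was Klf4, at 14.2, 28.5 and 6.60 CPM in 13, 4 and 4 cells in the order of age. Nanog was found in 19 of 42 E9.5 cells but at 0.336 CPM, Esrrb was at 1.07, 1.66 and 8.06 CPM, and Pou5f1 and Sox2 had no count in any kept cell.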
